A study of Mus musculus with 12 samples.

Results

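REV-ERB alpha (gene Nr1d1), REV-ERB beta (Nr1d2) and ROR alpha (Rora) are nuclear receptors of the circadian clock. They were chosen by name, and a probe set counts as a member's where that is its only gene symbol. Each is read by 1 probe set, so 3 probe sets of 21789 with a single symbol, or 3 genes of 19938, are described. Each member lay above the filter on dim genes in every comparison. The related gene Rorb was dim, at 5.47 to 6.51 log2 units over the 12 arrays, and lay below that filter.

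The clock turns on a loop in which BMAL1 (gene Arntl) and CLOCK bind E-box elements and switch on their own repressors, among them the Per and Cry genes and the REV-ERBs. REV-ERB proteins bind a short element, the ROR response element or RORE, recruit corepressors and lower the transcription of Arntl and other genes that carry it. ROR proteins bind the same element and act as activators. REV-ERBs bind haem as a ligand, and the mRNA of Nr1d1 is known for a large daily swing in many tissues, the skin included.

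Gene expression was measured on 12 whole-transcript microarrays of epidermal cells sorted from mouse dorsal skin, with 3 arrays in each of 4 groups. In the bulge set, all mice were 18 to 19 days old and carried Per1-Venus, in which the fluorescent protein Venus reports Per1. Hair follicle stem cells of the bulge, bright for alpha6 integrin and positive for CD34, were parted by Venus into a bright gate (clock-positive) and a dim one (clock-negative), and each sample pools about 20 mice. In the epidermis set, basal cells of the interfollicular epidermis (IFE) came from mice aged 1 year, some wild type and some with Bmal1 knocked out (KO) in the epidermis, at 5 mice per sample. No mice were treated. The labels of the clock-negative cells also name the Venus-high gate, so groups follow the sample titles. The strain, the Cre driver of the knockout and the time of day of collection are not given in the sources used here.

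Values are log2 intensities, so 1 unit is a doubling, and array medians ran from 6.82 to 7.01 in the bulge set and from 7.75 to 7.80 in the epidermis set. The number of arrays limits the precision. Basal keratinocyte markers (6 of 6 measured) averaged 11.4 to 11.5 per array in the bulge set and 12.8 to 12.9 in the epidermis set. Bulge markers (8 of 8 measured) averaged 10.5 to 10.6 in clock-positive, 9.67 to 9.76 in clock-negative and 8.95 to 9.21 in IFE arrays. T cell markers (7 of 9 measured) averaged 7.23 to 7.27 in clock-positive and 8.19 to 8.33 in clock-negative arrays; in wild-type IFE arrays 1 to 3 they stood at 8.09, 9.06 and 9.28, above 7.75 to 7.82 in the KO.

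The sequence just upstream of the REV-ERB genes is shown because E-boxes and receptor half-sites are the elements through which BMAL1 and the receptors are known to act. Both stretches are the 250 bases before the RefSeq start site, from assembly GRCm38.p6, read on the minus strand. In the Nr1d1 stretch (chr11:98775378-98775627), capitals mark the E-box variant CACGTT, which runs on the opposite strand and so reads as its reverse complement, AACGTG. In the Nr1d2 stretch (chr14:18239107-18239356), capitals mark the receptor half-site AGGTCA. The short Arntl stretch (chr7:113207528-113207556, plus strand, GRCm38.p6) lies just after the second start site of that gene in the table, and capitals mark its RORE.
Nr1d1: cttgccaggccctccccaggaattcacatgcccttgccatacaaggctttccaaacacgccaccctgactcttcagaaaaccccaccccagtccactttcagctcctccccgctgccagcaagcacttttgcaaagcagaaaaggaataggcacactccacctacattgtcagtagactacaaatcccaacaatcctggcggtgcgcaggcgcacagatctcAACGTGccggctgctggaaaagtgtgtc
Nr1d2: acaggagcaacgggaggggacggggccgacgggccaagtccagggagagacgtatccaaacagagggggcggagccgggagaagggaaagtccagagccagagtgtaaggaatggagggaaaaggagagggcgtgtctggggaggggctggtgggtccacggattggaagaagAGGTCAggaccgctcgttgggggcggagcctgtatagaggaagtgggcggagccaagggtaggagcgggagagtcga
Arntl: ggaaggcagAAAGTAGGTCAgggacggag

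The motifs were searched on both strands of the RefSeq promoter windows, 300 bases each with 250 before and 50 after the start. They were the E-box CACGTG, its variant CACGTT, the D-box TTATGTAA, the half-site AGGTCA and the RORE, whose last bases overlap the half-site. The Nr1d1 window held 1 match, the E-box variant at position -28, and its upstream part also lies in the annotated noncoding gene Gm31862. The Nr1d2 window held 1 match, the half-site at -77, and the Rora window held 0. The RORE of the Arntl window began at position 27. Of all 32851 promoter windows, 7.15% held CACGTG, 4.68% its variant, 0.938% the D-box, 16.3% the half-site and 0.384% the RORE. A match describes these letters and says nothing of binding, and a missing one says only that the letters are not in this window.

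In the epidermis, which asks what loss of Bmal1 does to these receptors, both REV-ERB genes fell in the KO and Rora did not pass the test. Nr1d1 was 15.8-fold lower in the KO and Nr1d2 4.67-fold lower, while Rora differed by -0.20 ± 0.10 on the log2 scale (SE of the fit, n = 3 per group). Of the 3 members 2 were lower and 0 higher; of the 13956 genes tested 0.193% were called, 0.115% as lower. These were 16 lower and 11 higher genes, against 29 and 33 after median centring, 44 and 47 after quantile normalization, and 42 and 45 after cyclic loess. Ordered from the largest fall, Nr1d1 stood at place 1 and Nr1d2 at place 5 of these genes, which passed a filter on the mean that also removes genes low only in the KO. With no such filter they stood at places 1 and 6 of 19938.

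**Figure D1:**
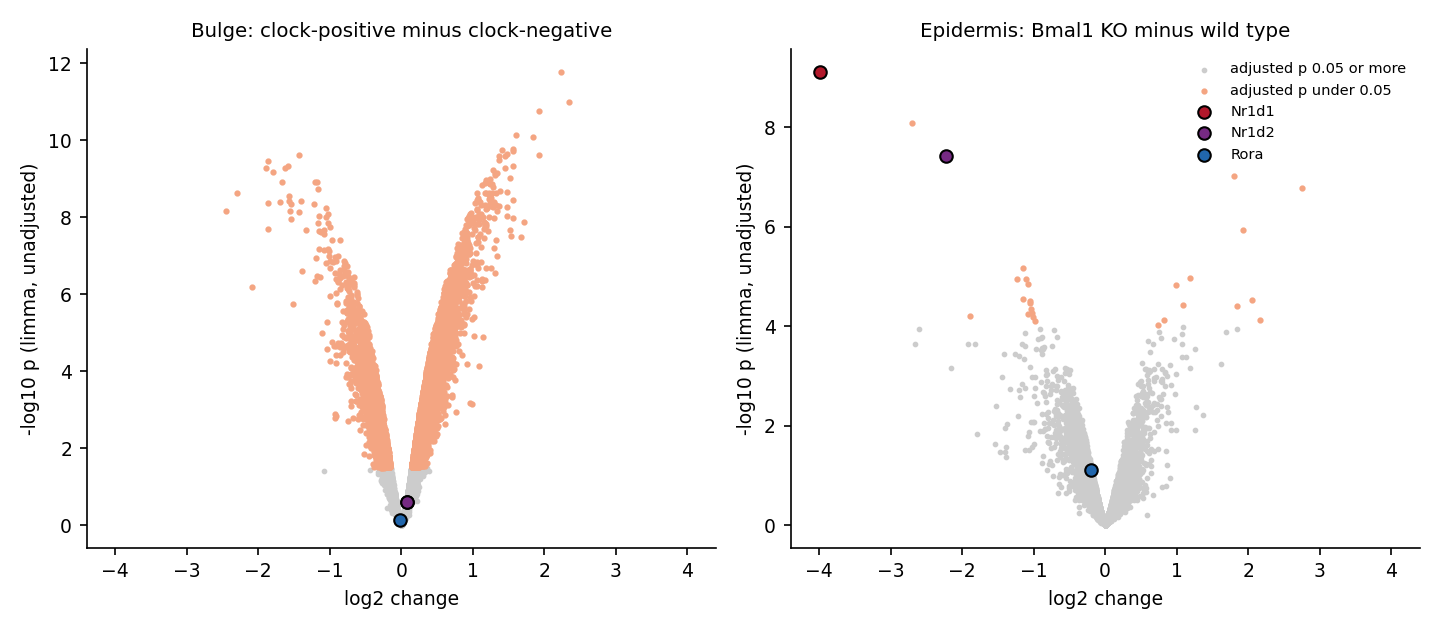
Each point is a gene, with its log2 change on the x axis and the unadjusted limma p on a -log10 scale on the y axis, for the bulge comparison (left) and the epidermis comparison (right); orange points have an adjusted p under 0.05. Nr1d1 and Nr1d2 stand at -3.98 and -2.22 in the epidermis, and all 3 receptors lie near 0 in the bulge, where the points of Nr1d1 and Nr1d2 coincide.

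Nr1d1, which encodes REV-ERB alpha, had log2 intensities of 12.28, 12.52 and 12.60 in wild-type arrays 1 to 3, against 8.63, 8.39 and 8.44 in KO arrays 1 to 3. All 3 KO arrays lay far below all 3 wild-type arrays, and within each genotype the arrays lay close together. The mean went from 12.47 ± 0.16 (SD, n = 3) to 8.49 ± 0.12, a log2 change of -3.98 ± 0.12 (SE; 95% interval -4.27 to -3.70; limma adjusted p = 1.08e-05). On the linear scale that interval runs from a fall of 12.99-fold to one of 19.2-fold.

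Nr1d2, which encodes the closely related REV-ERB beta, had log2 intensities of 11.05, 10.84 and 10.91 in wild-type arrays 1 to 3. In KO arrays 1 to 3 it stood at 8.81, 8.75 and 8.57, again with no overlap between the genotypes. The mean went from 10.93 ± 0.10 (SD, n = 3) to 8.71 ± 0.12, a log2 change of -2.22 ± 0.11 (SE; 95% interval -2.48 to -1.97; limma adjusted p = 1.73e-04), which is a fall of 3.91-fold to 5.58-fold. The array with the highest Nr1d1 among wild types was array 3, and the one with the highest Nr1d2 was array 1. In the KO, array 1 was the highest for both genes.

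Rora, which encodes the activator that shares the element, had log2 intensities of 11.95, 12.04 and 12.07 in wild-type arrays 1 to 3, against 11.85, 11.87 and 11.74 in KO arrays 1 to 3. Every KO array again lay below every wild-type array, but by a gap much smaller than for the REV-ERBs. The change of -0.20 ± 0.10 (SE) had a 95% interval of -0.42 to 0.027 and did not pass (limma adjusted p = 0.713, unadjusted p = 0.0767). All 3 members thus had KO values below the wild-type ones without overlap; of all genes tested, 8.56% did and 12.7% had groups apart in either direction. At an unadjusted p under 0.05, 2 of the 3 members passed, and 7.96% of all genes. With array weights Rora passed at -0.19 (limma adjusted p = 0.0406), but there 3341 of the 13956 genes tested were called, 2580 of them as lower. Over all 16 alternatives its adjusted p ran from 0.0406 to 1.

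The T cell markers moved along with these differences between genotypes, as given above, and stood highest in wild-type arrays 2 and 3, which also had the highest Rora and Nr1d1. Langerhans and other myeloid markers (8 of 8 measured) behaved alike, with 7.001, 7.90 and 8.28 in wild-type arrays 1 to 3 and 6.79 to 6.96 in the KO. Without wild-type array 3 the fall of Nr1d1 was -3.92 and that of Nr1d2 -2.23, both past the threshold, and Rora was at -0.17. Wild-type array 2 stayed in that fit, with T cell markers at 9.06 and myeloid markers at 7.90. Leaving out array 3 therefore does not even out these markers between the genotypes. Markers of differentiated epidermis (5 of 6 measured) stood at 10.3, 10.9 and 11.05 in wild-type arrays 1 to 3 and at 10.2 to 10.4 in the KO. The mean of the smooth muscle markers was higher in the KO, at 7.41 to 7.52 against 7.21 to 7.34, but the listed genes did not move alike. Acta2 averaged 9.35 in the KO against 8.28 in the wild type, while Cnn1 was lower in the KO, at 6.14 to 6.25 against 6.33 to 6.51. Lower there were melanocyte markers (6.81 to 6.88 against 6.89 to 6.96) and basal keratinocyte markers (12.82 to 12.85 against 12.86 to 12.90). Bulge, endothelial and dermal fibroblast markers overlapped between the genotypes. The part of these cells in the change of Rora was not tested. In such sorted bulk samples, fewer cells of a type and less RNA per cell cannot be told apart.

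**Figure D2:**
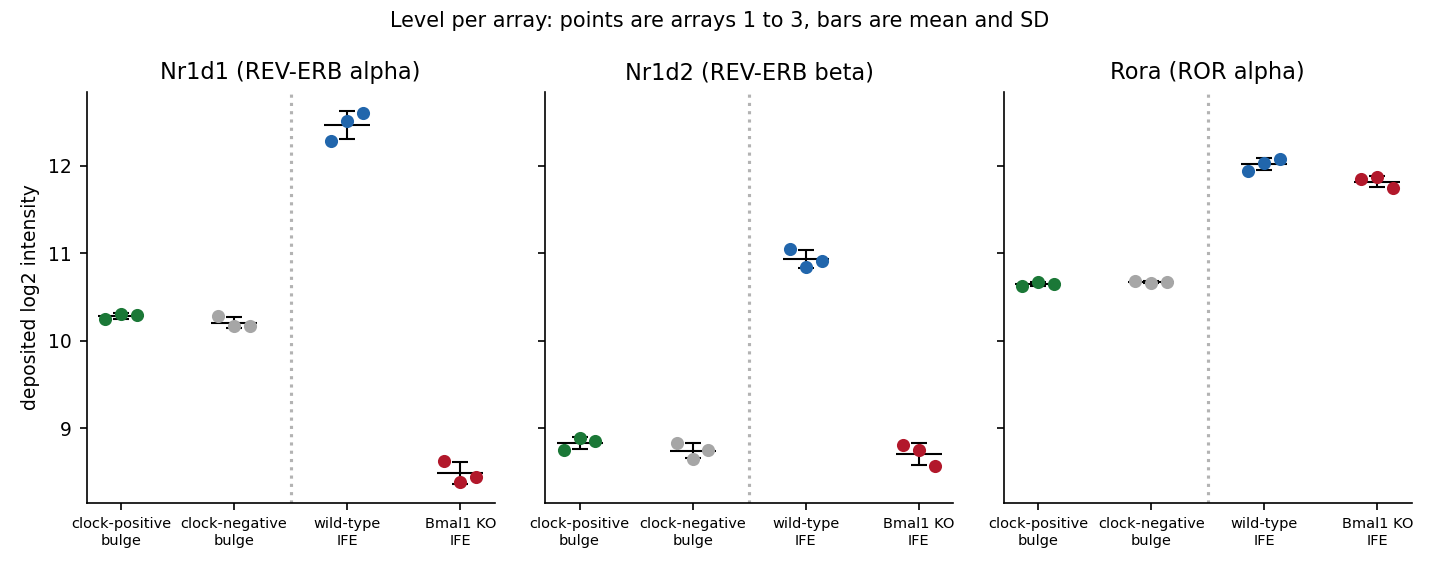
Deposited log2 intensity (y axis) of the 3 receptors in the 4 groups (x axis). Each point is 1 array, and bars show the group mean and SD. The dotted line parts the sets, whose levels appear to have been processed apart. Nr1d1 goes from 12.47 to 8.49 and Nr1d2 from 10.93 to 8.71 between wild-type and KO IFE, while the bulge groups overlap for both genes.

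The 3 genes did not change by the same amount. Within each array the Nr1d1 value minus the Nr1d2 value was 1.24 to 1.69 in wild types and -0.36 to -0.13 in the KO, so that the change of Nr1d1 differed from that of Nr1d2 by -1.76 ± 0.16 log2 units (SE). The change of Nr1d1 differed from that of Rora by -3.78 ± 0.09 and the change of Nr1d2 from that of Rora by -2.03 ± 0.10. In each of these pairs the genotypes did not overlap. The exact two-sided permutation test gave p = 0.1 for each, which is the smallest that 3 against 3 arrays allow (adjusted p = 0.15 over the 6 pairs compared in both sets), so the test cannot pass 0.05. The intensity of different probe sets need not rise by the same step per transcript.

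The mouse Thra gene, which encodes thyroid hormone receptor alpha, overlaps the Nr1d1 gene in the RefSeq table of GRCm38.p6, and the genes are known to run on opposite strands. Whether the labelling kept the strand is not given in the sources used here. The Thra probe set stood at 10.92, 11.21 and 11.25 in wild-type arrays 1 to 3 and at 11.08, 10.96 and 10.70 in KO arrays 1 to 3, so its genotypes overlapped. Its change was -0.21 ± 0.14 (SE; limma adjusted p = 0.844), against -3.98 for Nr1d1. In the bulge, Thra was 0.63 ± 0.06 higher in clock-positive cells (adjusted p = 3.18e-05), where Nr1d1 did not pass.

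In bulge cells, where the question is whether a bright Per1 reporter goes with other levels of these receptors, none of the 3 members passed the test on the deposited values. In limma 0 of 3 passed, and 0 of 3 had an unadjusted p under 0.05, although 63.5% of the 13956 genes tested passed there and 67.8% had such an unadjusted p. The groups overlapped for all 3 members, while 69.2% of all genes had groups apart. The 95% intervals limit a change to at most 1.18-fold for any member in either direction on the deposited scale. The median bulge change over the 13956 genes tested was, however, 0.15. Against it Nr1d1 stood at -0.071, Nr1d2 at -0.062 and Rora at -0.17. That median depends on the filter on dim genes: it was 0.0067 with no filter and 0.21 with the lowest 50% left out.

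Nr1d1 had log2 intensities of 10.25, 10.31 and 10.30 in clock-positive arrays 1 to 3 and of 10.28, 10.17 and 10.17 in clock-negative arrays 1 to 3. Clock-negative array 1 lay within the clock-positive range, and the other clock-negative arrays lay just below it. The change was 0.076 ± 0.063 (SE, n = 3 per group; 95% interval -0.062 to 0.21; limma adjusted p = 0.298).

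Nr1d2 stood at 8.75, 8.89 and 8.85 in clock-positive arrays 1 to 3 and at 8.83, 8.65 and 8.75 in clock-negative arrays 1 to 3, with the groups interleaved. Its change was 0.085 ± 0.070 (95% interval -0.069 to 0.24; limma adjusted p = 0.298). Rora had the tightest values, 10.63, 10.67 and 10.64 in clock-positive arrays 1 to 3 and 10.68, 10.66 and 10.67 in clock-negative arrays 1 to 3. Its groups overlapped, and its change was -0.022 ± 0.058 (95% interval -0.15 to 0.11; limma adjusted p = 0.754).

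The sign of the bulge differences of Nr1d1 and Nr1d2 depended on the scaling, while Rora lay below 0 under all 16 alternatives. Median centring used the median of the genes kept by the filter on dim genes. Over all filled probe sets the array medians were lower in clock-positive (6.82 to 6.84) than in clock-negative arrays (6.94 to 7.01). Centring on those medians was not run. Nr1d1 was at -0.14 after median centring, -0.13 after quantile normalization and -0.14 after cyclic loess, without passing. Nr1d2 was at -0.13, -0.17 and -0.17 in the same order and passed as lower under quantile normalization (limma adjusted p = 0.0491) and cyclic loess (adjusted p = 0.0361). Rora was at -0.23, -0.23 and -0.21 and passed as lower under all 3 (adjusted p = 0.00566, 0.00918 and 0.0116). The balance of all genes shifted too: 6311 passed as higher and 2555 as lower on the deposited values, 2042 and 4862 after median centring, 2639 and 2723 after quantile normalization, and 2862 and 2816 after cyclic loess.

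In the bulge, T cell and bulge markers differed between the groups as given above, and other marker lists stood apart too. Endothelial markers (5 of 5 measured) were higher in clock-positive arrays, at 8.12 to 8.13 against 7.62 to 7.71, as were basal keratinocyte markers, at 11.49 to 11.52 against 11.37 to 11.43. Lower there were markers of differentiated epidermis (11.08 to 11.11 against 11.64 to 11.68), of Langerhans and other myeloid cells (7.16 to 7.21 against 7.56 to 7.61) and of melanocytes (6 of 6 measured, 6.37 to 6.46 against 6.76 to 6.86). Their part in the differences of the receptors was not tested. Within the arrays of the bulge, the changes of Nr1d1 and Nr1d2 differed by -0.0087 ± 0.036 (exact two-sided permutation p = 0.8, adjusted p = 0.8). Those of Nr1d1 and Rora differed by 0.098 ± 0.033 (exact p = 0.1, adjusted p = 0.15), and those of Nr1d2 and Rora by 0.11 ± 0.05 (exact p = 0.2, adjusted p = 0.24).

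**Figure D3:**
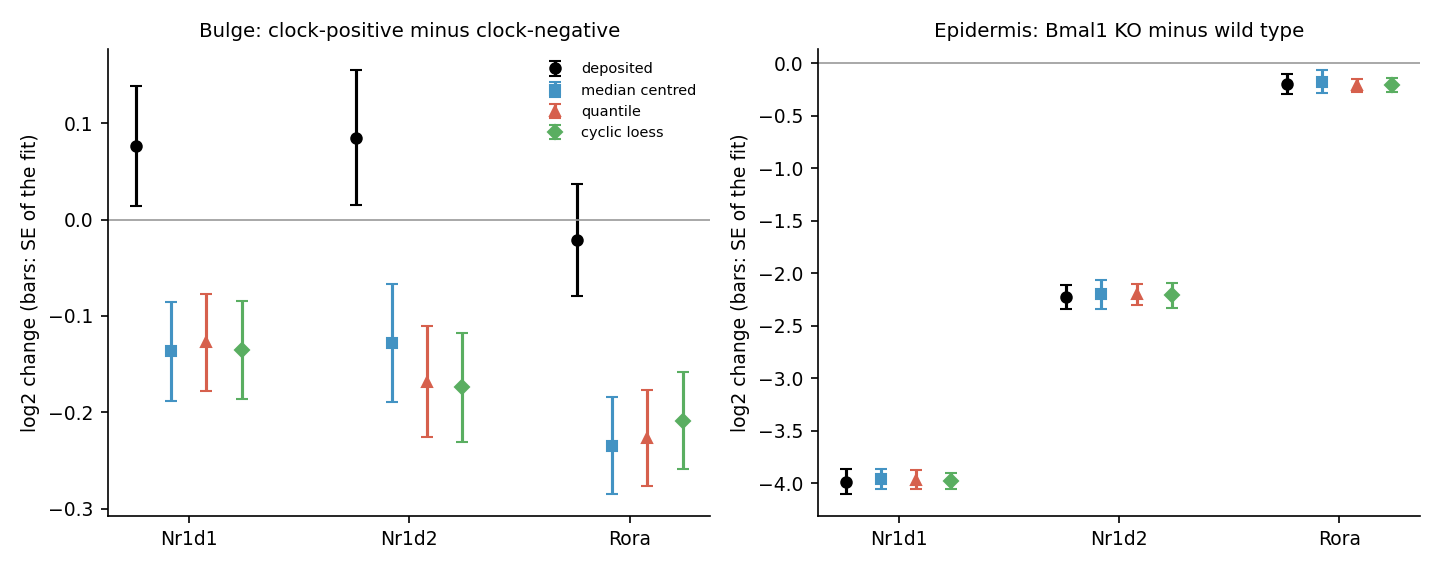
Log2 change (y axis, bars are the SE of the fit) of the 3 receptors (x axis) in the bulge (left) and the epidermis (right) on the deposited values and after 3 other scalings; the y axes differ in range. In the bulge the signs of Nr1d1 and Nr1d2 turn from 0.076 and 0.085 to values below 0, and in the epidermis the values stay near -3.98, -2.22 and -0.20.

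The difference of the changes was tested in 1 fit over all 12 arrays, as the bulge change (clock-positive minus clock-negative) minus the epidermis change (wild type minus KO). It was -3.91 ± 0.14 for Nr1d1 (limma adjusted p = 1.32e-09) and -2.14 ± 0.13 for Nr1d2 (adjusted p = 4.31e-07), so both genes parted wild-type from KO epidermis by more than they parted bright from dim bulge cells. For Rora it was -0.22 ± 0.11 and did not pass (adjusted p = 0.154), but it passed at -0.41 after median centring (adjusted p = 0.0281), -0.44 after quantile normalization and -0.42 after cyclic loess. Of all genes 17.4% passed this test, 6.48% in this direction. The cells, the age of the mice and the size of the pools also differ between the sets and cannot be told apart here from the kind of contrast.

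Across the 4 groups, Nr1d1 stood highest in wild-type IFE, then in the overlapping bulge groups (10.28 and 10.21), and lowest in KO IFE. Nr1d2 had the same order, but its KO level (8.71 ± 0.12 SD) overlapped that of clock-negative bulge cells (8.74 ± 0.09). Rora was higher in both IFE groups (12.02 ± 0.07 and 11.82 ± 0.07) than in the bulge groups (10.65 ± 0.02 and 10.67 ± 0.01). These orders cross sets that appear to have been normalized apart and were not tested. After quantile normalization of all 12 arrays together, an alternative chosen after seeing the data, the excess of wild-type IFE over clock-positive bulge went from 2.18 to 0.97 for Nr1d1, from 2.10 to 0.95 for Nr1d2 and from 1.37 to 0.16 for Rora. On that scale the KO lay below the bulge for both REV-ERBs (8.06 against 10.85 and 10.92 for Nr1d1, 8.25 against 9.32 and 9.44 for Nr1d2), and the order of Rora changed: KO IFE, at 11.16, lay below clock-positive (11.23) and clock-negative bulge (11.38), with wild-type IFE at 11.39.

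Of the core clock genes listed as carrying ROREs and known to be repressed by REV-ERBs, 4 were measured: Arntl, Clock, Nfil3 and Cry1. In the KO epidermis 2 of these 4 rose and 0 fell. The median change of the 4 was 1.05 against -0.012 over all genes tested, of which 0.0788% were higher. In clock-positive bulge cells 3 rose and 0 fell as deposited. The median of the 4 there was 0.26 against 0.15 over all genes tested, of which 45.2% were higher. After median centring 1 rose and 0 fell, as also after cyclic loess, and after quantile normalization Nfil3 rose and Cry1 fell.

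Cry1, a repressor of the clock activators, had log2 intensities of 9.15, 9.28 and 9.28 in wild-type arrays 1 to 3, against 11.13, 11.01 and 10.96 in KO arrays 1 to 3. The genotypes were well apart, in the direction opposite to the REV-ERBs, and the change was 1.80 ± 0.10 (SE; limma adjusted p = 3.40e-04; 0.0671 with the replicate number as a block). In the bulge Cry1 was at 0.048 ± 0.063 (adjusted p = 0.517) as deposited, and its sign turned under the other scalings, to -0.17 after median centring, -0.20 after quantile normalization (passed as lower, adjusted p = 0.0443) and -0.17 after cyclic loess.

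Nfil3, a repressor that competes with the activators of D-box genes, stood at 6.47, 7.53 and 7.57 in wild-type arrays 1 to 3 and at 9.52, 9.55 and 9.02 in KO arrays 1 to 3. All KO arrays were higher, with wild-type array 1 about 1 unit below the others. The change was 2.17 ± 0.29 (limma adjusted p = 0.0414), but the call was lost without KO array 1 (adjusted p = 0.134), 2 (0.174) or 3 (0.107), without wild-type array 2 (0.0810), with every probe set on its own (0.0540), with no filter on dim genes (0.0754) and with the replicate number as a block (0.319). Nfil3 also rose in clock-positive bulge cells, by 1.01 ± 0.09 (limma adjusted p = 1.98e-05). It stood at 0.80 after median centring, 0.75 after quantile normalization and 0.75 after cyclic loess. Nr1d1 and Nr1d2 did not pass there as deposited and lay below 0 under those 3 scalings, with Nr1d2 passing as lower under the last 2. Whether these changes are linked was not tested.

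Arntl, the knocked-out gene and the best known target of the REV-ERBs, stood at 9.27, 9.47 and 9.34 in wild-type arrays 1 to 3 and at 9.85, 9.603 and 9.55 in KO arrays 1 to 3. The KO arrays were the higher ones, by 0.30 ± 0.12 (limma adjusted p = 0.530, not past the threshold). The place of its probe set on the gene was not analysed here, so these values do not check the genotype labels. Clock, the partner of BMAL1, was at 0.15 ± 0.10 in the KO (adjusted p = 0.842) and rose by 0.36 ± 0.09 in clock-positive bulge cells (adjusted p = 0.00513), a call lost under all 3 other scalings. Arntl was called there too, with 8.67, 8.77 and 8.72 in clock-positive arrays 1 to 3 and 8.59, 8.47 and 8.60 in clock-negative arrays 1 to 3. That rise of 0.16 ± 0.07 (limma adjusted p = 0.0470) turned sign under the same 3 scalings, at -0.049 after median centring, -0.089 after quantile normalization and -0.091 after cyclic loess. Its call was also lost with the replicate number as a block (0.0532), with no filter on dim genes (0.0550), with all 12 arrays in 1 fit (0.174), without any 1 of the clock-positive arrays (0.0694, 0.157 and 0.110) and without clock-negative array 2 (0.122) or 3 (0.0662).

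**Figure D4:**
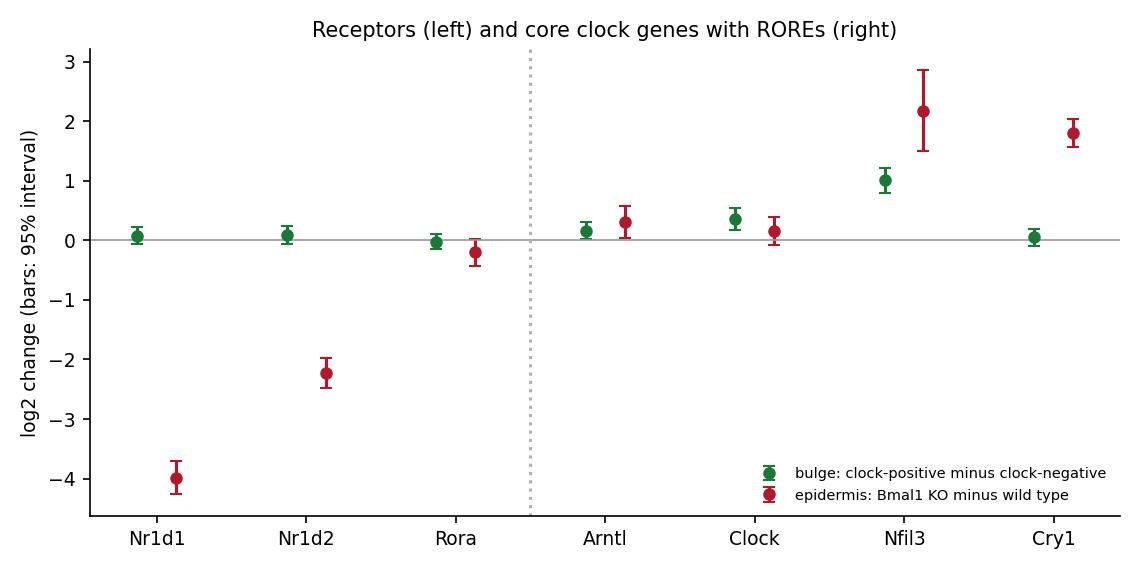
Log2 change (y axis, bars are 95% intervals of the fit) in the bulge (green) and the epidermis (red) of the 3 receptors, left of the dotted line, and of the 4 measured core clock genes with ROREs, right of it. In the KO epidermis the REV-ERBs lie at -3.98 and -2.22 and Cry1 and Nfil3 at 1.80 and 2.17.

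Outside the core clock, genes reported in other tissues as REV-ERB targets, such as Insig2 and E2f8, were listed too. Of 16 listed, 15 were measured and 5 passed the filter on dim genes in the epidermis set, where limma called 0 in the KO and 1 had an unadjusted p under 0.05. That gene was E2f8, a repressor of the cell cycle, at 0.41 ± 0.15 (adjusted p = 0.499). The list median was 0.049, near the -0.012 of all genes tested. In the bulge 7 were tested, where 45.2% of all genes were higher and 18.3% lower; Insig2, a regulator of sterol synthesis, rose in clock-positive cells by 0.25, and 2 fell, the chemokine receptor Cx3cr1 at -0.59 ± 0.08 and the protease Mmp9 at -0.46 ± 0.09. After median centring 0 rose and 4 fell, where 2042 of the 13956 genes tested were higher and 4862 lower. With no filter on dim genes 1 of 15 rose and 7 fell, where 6285 of 19937 genes were higher and 5564 lower.

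The partners that the receptors act through, and the enzymes that control REV-ERB protein, were not called in the epidermis. Of 12 corepressors and coactivators 10 were measured, and in the KO limma called 0, with 0 at an unadjusted p under 0.05. Among them the histone deacetylase Hdac3 was at 0.13 ± 0.15 (adjusted p = 0.940). Of 9 kinases and ubiquitin ligases limma called 0 in the KO and 1 had an unadjusted p under 0.05, Cdk1, the kinase of mitosis that marks REV-ERB alpha for breakdown, at 0.61 ± 0.12 (adjusted p = 0.130). In clock-positive bulge cells 8 of 10 cofactors and 4 of 9 enzymes rose and 0 fell as deposited. Of all genes 45.2% were higher there. After median centring 0 cofactors were called, where 2042 of the 13956 genes tested were higher and 4862 lower. After cyclic loess 1 cofactor rose and 1 fell, and 1 enzyme rose and 2 fell, where 2862 genes were higher and 2816 lower.

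The patterns most like that of each REV-ERB were sought among other genes tested (234 for a REV-ERB, 235 for Rora) in the epidermis with an SD of at least 0.5 over the 6 IFE arrays. Over those 6 arrays Nr1d1 was closest to Per3, a period gene (Pearson r = 0.997), Nr1d2 (0.994) and the pseudogene Nlrp1c-ps (0.989), and most opposed to Cry1 (-0.991), Serpina3b (-0.984) and Il18r1 (-0.977). Nr1d2 was closest to Per3 (0.998), the channel gene Trpm3 (0.995) and Nr1d1, and most opposed to Cry1 (-0.993), Il18r1 (-0.987) and Serpina3b (-0.985). Over all 12 arrays, with each set centred on its own mean, Per3 stayed first for both (0.996 and 0.995) and Cry1 stayed the most opposed (-0.989 and -0.988), while Klf12 (0.976) and Sytl2 (0.973) took the third places. These values rest mostly on the 2 genotypes, since the arrays of a genotype share it, and they describe these arrays only.

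Rora followed other genes. Over the 6 IFE arrays it was closest to Aloxe3, a lipoxygenase of the epidermal barrier (r = 0.997), Mapre2 (0.990) and Gpr155 (0.986), and most opposed to Zmat4 (-0.947), Adgrg7 (-0.920) and Slc38a4 (-0.889). Over all 12 arrays Hpgds (0.974), Ngfr (0.966) and Gpr155 (0.955) were closest. None of these genes of the Rora pattern was called between the genotypes by limma, with adjusted p from 0.0509 to 0.378. Its correlation with Nr1d1 over the 6 IFE arrays was 0.893 and with Nr1d2 0.880, again with the genotype shared by the points.

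Per3, the nearest in pattern, had log2 intensities of 10.61, 10.54 and 10.49 in wild-type arrays 1 to 3, against 8.03, 7.75 and 7.78 in KO arrays 1 to 3. Like the REV-ERBs it was far lower in every KO array, by -2.69 ± 0.11 (limma adjusted p = 5.65e-05), and like them it did not pass on the deposited values in the bulge (-0.062 ± 0.062, adjusted p = 0.390), though it passed as lower there after each of the 3 other scalings. Of 12 clock genes driven through E-boxes 11 were tested in the epidermis, and 2 fell (Per3 and Ciart, a repressor of the clock, at -1.90 ± 0.25, adjusted p = 0.0388) and 1 rose, with a median of -0.53. Of all 13956 genes tested there, 0.115% were lower and 0.0788% higher, with a median of -0.012. Ciart lost its call without wild-type array 2 (0.102) or 3 (0.0773) and without KO array 2 (0.174) or 3 (0.151). Its call was also lost with no filter on dim genes (0.0711) and with the block (0.319). With every probe set on its own, the one used here lost the call (0.0507), while another Ciart probe set passed at -2.11 (limma adjusted p = 0.00113). After each of the 3 other scalings 5 of the 11 clock genes fell and 1 rose. Of the 13956 genes tested, 29 fell and 33 rose after median centring, 44 and 47 after quantile normalization, and 42 and 45 after cyclic loess. The gene left out as dim was Bhlhe41, a repressor of the clock activators, at 7.75, 7.33 and 7.90 in wild-type arrays 1 to 3 and at 5.28, 4.74 and 4.77 in KO arrays 1 to 3. Its low KO values took part in that filter, and with no filter it fell by 2.73 ± 0.19 on the log2 scale (limma adjusted p = 0.00366), next after Nr1d1 among 19938 genes. The 1 that rose was Cry1, which also stands in the RORE list.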

How the data were processed

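The deposited values are log2 intensities per probe set; the submitters' processing notes name RMA, whose version and settings are not given in the sources used here. Total RNA had been amplified across the whole transcriptome before labelling, per the labels' protocols. Of 35512 probe sets, 34760 are filled in the bulge columns, 28853 in the epidermis columns and 28101 in both, which points to normalization of each set by itself, and each was fitted separately. Symbols came from GEO's platform annotation: 21789 probe sets have 1, 1621 several and 12102 none listed. One probe set was used per symbol, preferring those filled on all 12 arrays and then the highest mean. The 30% of genes with the lowest mean were left out. limma 3.58.1 (lmFit, eBayes) in R 4.3.3 gave two-sided tests with Benjamini-Hochberg adjustment over all genes and a threshold of 0.05; values after ± are SDs where marked and otherwise the fit's standard errors, or, for pairs of members the standard error of the difference of group means. The fit was tested on simulated data. Differences between members used exact permutation tests.

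Genes named were the members, the measured core clock genes with ROREs, up to 4 genes of each other list with the smallest p, Thra, and by Pearson r the 3 nearest and 3 most opposed genes per member; Hdac3 was added after its values were seen. The members and lists were chosen with earlier results of these data known. Where samples of a group do not come from separate mice, which the sources used here do not settle, p-values measure only the spread between these samples, which may be technical. Alternatives were 3 other scalings, other dim filters, a variance trend, array weights (gene by gene), every probe set, the replicate number as a block, all 12 arrays in 1 fit and leaving out each array. Median centring in the limma fits used the median of the genes kept by the dim filter. The promoter sequences are from RefSeq; all 3 members matched.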

Additional observations from a re-analysis of the deposited data

Results flagged for a closer look

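The bulge change (clock-positive minus clock-negative) less the epidermis change (wild type minus KO) passed limma's test for the following genes named in the text or by its rule. Among the receptors it was -3.91 for Nr1d1 and -2.14 for Nr1d2. Among core clock genes with ROREs it was 0.47 for Arntl, 0.51 for Clock, 3.18 for Nfil3 and 1.84 for Cry1. The call was lost for Arntl in 11 and for Clock in 10 of 21 alternatives, among them the 3 other scalings (adjusted p 0.0742, 0.104 and 0.0999 for Arntl, 0.162, 0.137 and 0.164 for Clock) and the replicate block (0.120 and 0.0758). Among other clock genes it was -2.76 for Per3, -1.54 for Ciart, -1.55 for Dbp and -0.58 for Tef. Among reported targets and enzymes that act on REV-ERB it was -0.90 for Cx3cr1, 0.58 for E2f8 and 1.06 for Cdk1. In haem synthesis and breakdown it was -2.82 for Alas2, 0.62 for Alas1 and 0.56 for Blvra. Among other nuclear receptors it was 0.57 for Nr3c1, 0.73 for Vdr, 0.59 for Rarg, -0.54 for Nr2e1 and -0.57 for Nr3c2. The call was lost for Nr3c1 after median centring (0.0556), and for Vdr with the replicate block (0.0994) and without clock-negative array 2 (0.0555). Whether the calls held under the alternatives is not reported here for Dbp, Tef, Rarg, Nr2e1, Nr3c2, Cx3cr1, E2f8, Cdk1 and the haem genes. Of these, E2f8 (limma adjusted p = 0.0398) and Alas1 (0.0397) lay near the threshold. A positive value means that the bulge change lay above the epidermis change so written. Of all genes 17.4% passed this test.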

How the results depend on the processing

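The falls of Nr1d1 and Nr1d2 in the KO, and their differences of changes, kept direction and call under each alternative run: -4.13 to -3.92 for Nr1d1 and -2.27 to -2.14 for Nr1d2 in the epidermis, with adjusted p of at most 0.0113 and 0.0293. In the bulge the sign turned for Nr1d1 (-0.137 after median centring, -0.127 after quantile normalization, -0.136 after cyclic loess) and Nr1d2 (-0.128, -0.168 and -0.174), and Rora passed (-0.235, -0.227 and -0.209). The cause was not tested. With array weights Rora also passed in the epidermis (-0.188), where 3341 genes were called, and for the difference of changes (-0.203), where 7267 were. That difference passed too under the 3 scalings (-0.410, -0.438 and -0.420 in that order).

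Genes called in the bulge went from 8866 to 5362 after quantile normalization, 5678 after cyclic loess and 5301 with all 12 arrays in 1 fit (7129 to 9826 without any 1 array). In the epidermis 27 became 62 after median centring, 91 after quantile normalization, 87 after cyclic loess, 16 with no dim filter, 47 with the lowest 50% left out, 57 with a variance trend, 3341 with array weights and 407 with all 12 arrays in 1 fit (7 to 103 without any 1 array; 103 without wild-type array 1). The 2422 of the difference of changes became 1595 with the lowest 50% left out and 7267 with array weights (1191 to 4188 without any 1 array).

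The replicate numbers were not shown to pair the samples: same-numbered arrays correlated at 0.241, 0.260 and -0.0610 in the bulge and at -0.442, 0.0427 and -0.525 in the epidermis. With the replicate block, 3 genes passed in the epidermis, Nr1d1 (adjusted p = 0.0113) and Nr1d2 (0.0293) among them, and 687 for the difference of changes. The pair difference of Nr1d1 and Nr1d2 in the bulge turned sign after quantile normalization (0.0407) and cyclic loess (0.0387), and ran from -0.0310 to 0.0191 without any 1 array. It was 0.00777 without clock-positive array 2 and 0.0191 without clock-negative array 2.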

Other observations

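Of 45 other nuclear receptors listed, 41 were measured. In clock-positive bulge cells 10 of the 24 tested rose and 7 fell as deposited, where 45.2% of all genes were higher and 18.3% lower. After cyclic loess 4 rose and 5 fell, where 2862 of the 13956 genes tested were higher and 2816 lower. Nr3c1, the glucocorticoid receptor, rose by 0.77 ± 0.07 and Vdr, the vitamin D receptor, by 0.69 ± 0.06 (limma adjusted p = 1.44e-05 and 1.50e-05), and both kept the call under every alternative run, while Nr2e1 fell by 0.48 ± 0.06. In the KO epidermis limma called 0 of 26 tested, with 3 at an unadjusted p under 0.05. They include Esr1, an oestrogen receptor, at 0.88 ± 0.23 (adjusted p = 0.294) and Nr3c2, the mineralocorticoid receptor, at -0.49 ± 0.14 (adjusted p = 0.336).

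Haem, the ligand of the REV-ERBs, is made and broken down by 13 listed enzymes, of which 12 were measured. In the KO epidermis limma called 0 of 12, with 2 at an unadjusted p under 0.05: Alas2, the first enzyme of the pathway in red blood cells, at -1.20 ± 0.21 (adjusted p = 0.0882), and Alad at 0.64 ± 0.24 (adjusted p = 0.514). In clock-positive bulge cells 6 of 12 rose and 1, Alas2, fell as deposited, where 45.2% of all genes were higher and 18.3% lower. After cyclic loess 2 rose and 5 fell, where 2862 of the 13956 genes tested were higher and 2816 lower.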
